A study of Mus musculus with 2 samples.

Results

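The genes described here are interferon-stimulated genes, the transcripts that cells make more of when they sense interferon. They were taken from a list of 40 genes by their symbols in the count table, with the RNA sensor gene listed as Ddx58 (also called Rigi), and all 40 were present among 14774 counted genes. The RNA came from C57BL/6 mouse cells labelled as splenic CD4+CD25+ regulatory T cells, which had been held for 5 days together with the mouse endothelial line SVEC4-10. In the control co-culture the SVEC4-10 cells had received a control oligonucleotide, and in the knockdown co-culture small interfering RNA against Capns1, the gene of the small subunit that conventional calpains share. Each co-culture gave 1 library, called here the control library and the siCapns1 library, and without replicates differences were not tested. The knockdown was made in the endothelial partner and not in the labelled cells, and the labels do not say how the T cells were separated from it before RNA extraction.

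Type I interferons bind a receptor of the chains IFNAR1 and IFNAR2, whose kinases JAK1 and TYK2 phosphorylate factors that include STAT2. STAT2 and IRF9 are parts of the complex ISGF3, which binds a DNA element called the interferon-stimulated response element (ISRE). Interferon gamma acts through JAK1 and JAK2 and on gamma-activated sites (GAS). The genes switched on degrade or edit viral RNA, block translation, tag proteins, trap virus particles and raise the cell's own sensing. T cells, B cells, myeloid cells and stromal cells can all express them.

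The deposited totals were 48100576 reads (control) and 47300284 reads (siCapns1). Levels are given as CPM (counts scaled by library size), and 3 reads correspond to 0.0626 and 0.0642 CPM. Foxp3, which defines regulatory T cells, had levels of 5.22 and 4.73 CPM in the control and the siCapns1 library, and Cd4 of 8.22 and 6.25, against 559 and 517 CPM for the B cell gene Cd79a and 1009 and 933 CPM for the collagen gene Col5a2. Foxp3 and Cd4 were thus far below the most abundant markers of B cells and matrix-producing cells in both libraries. Capg, a gene of the regulatory T cell list that other cells also express, stood higher, at 127 and 117 CPM. Which cells the reads below came from was not measured. In bulk RNA, fewer cells of a type and less RNA per cell cannot be told apart.

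Promoter windows of 300 bases, from 250 before to 50 after the annotated start, were at hand for 32 of the 40 genes from RefSeq (GRCm38.p6). The entries missing are Dhx58, Mx1, Oas2, Parp14, Parp9, Rtp4, Usp18 and Zbp1. The ISRE was searched as GAAA, any 2 bases and GAAA again, or on the other strand TTTC, any 2 bases and TTTC, and at least 1 match was found in 17 of the 32 genes (53.1%), against 1079 of 27025 genes with windows (3.99%) and 3.44% of all 32851 windows. The GAS was searched as TTCNNNGAA, which reads the same on both strands, and was found in 11 of the 32 (34.4%), against 2582 of the 27025 genes (9.55%) and 8.30% of windows. Matches of the ISRE can overlap each other in runs of GAAA repeats, and matches of both motifs are descriptions of letters, not of binding.

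The stretches below are shown because they hold letters that match the element bound by ISGF3. They are all of the genes whose interval of the fold excluded 1 and whose ISRE match lay before the start, with up to 25 bases on each side, 5′ to 3′ on the strand of the gene, with the ISRE matches in capitals. The first 5 had higher and the last 5 lower levels in the siCapns1 library.
Isg15, chr4:156200850-156200921, minus strand: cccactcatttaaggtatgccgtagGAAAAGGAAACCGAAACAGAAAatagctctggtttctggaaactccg
Bst2, chr8:71537562-71537627, minus strand: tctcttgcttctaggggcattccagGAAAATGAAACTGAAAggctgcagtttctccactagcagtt
Oas1a, chr5:120907526-120907570, minus strand: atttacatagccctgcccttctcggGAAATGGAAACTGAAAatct
Rsad2, chr12:26456538-26456597, minus strand: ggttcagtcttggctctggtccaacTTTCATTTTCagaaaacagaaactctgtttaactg
Ifit1, chr19:34640779-34640838, plus strand: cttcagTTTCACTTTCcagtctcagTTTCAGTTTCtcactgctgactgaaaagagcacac
Oas3, chr5:120777700-120777759, minus strand: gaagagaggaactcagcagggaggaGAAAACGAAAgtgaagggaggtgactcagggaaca
Trim30a, chr7:104465195-104465254, minus strand: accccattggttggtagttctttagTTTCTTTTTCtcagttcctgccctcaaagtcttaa
Ifit3, chr19:34583373-34583441, plus strand: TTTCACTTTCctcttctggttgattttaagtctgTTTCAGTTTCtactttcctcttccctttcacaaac
Gbp7, chr3:142530258-142530317, plus strand: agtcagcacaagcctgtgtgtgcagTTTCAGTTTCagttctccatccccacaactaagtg
Stat2, chr10:128270251-128270310, plus strand: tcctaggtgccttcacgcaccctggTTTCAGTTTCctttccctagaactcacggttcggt

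In Isg15, 3 overlapping matches make up 1 run of GAAA repeats whose first base lies 78 bases before the start, and in Oas1a and Bst2 2 matches overlap. Ifit1 and Ifit3 each hold 2 separate matches. An ISRE was thus present at both ends of the order of folds. The 17 genes with a match had a median log2 fold of -0.03 (5 intervals above 1 and 6 below), and the 15 genes with windows and no match also had one of -0.03 (4 above and 6 below). These counts stand beside 24.2% above and 22.7% below over all counted genes. With a trend of fold on transcript length taken away, as described below, the medians were -0.05 with and -0.03 without a match.

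The comparison of the libraries asks how interferon-stimulated RNAs of the co-cultured cells compare with and without Capns1 knockdown in the endothelial line. The 40 genes lay close to equality and did not move as a block. Isg15, Bst2 and Usp18 were 1.13 to 1.17-fold higher in the siCapns1 library, while Oas3, Dtx3l, Sp100 and Parp14 stood at folds of 0.837 to 0.880. Intervals lay above 1 for 10 genes and below 1 for 17, and included 1 for 13. Over all counted genes 24.2% of intervals lay above 1 and 22.7% below. Among the 8226 genes with at least as many reads as the lowest member, 2252 in both libraries together, these shares were 32.6% and 26.7%. The intervals hold only the error of counting independent reads. They set these libraries side by side and say nothing of how far replicate cultures would differ.

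No gene of the list was at least 25% higher or 20% lower in the siCapns1 library, the sizes set as thresholds for a called gene, together with an interval that excludes 1. Of all counted genes 2.94% were called higher and 4.90% lower by this rule, and of those with at least 2252 reads 0.754% and 0.960%. The median log2 fold of the list was -0.03, against 0.00 for all counted genes, and its range was -0.26 to 0.23. The median size of the log2 fold, without sign, was 0.093 in the list and 0.090 among genes with at least 2252 reads. The genes together held 251127 control and 238599 siCapns1 reads, which is 0.526% and 0.508% of the reads on counted genes. Their summed level stood at a fold of 0.974 (95% interval 0.968 to 0.979).

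**Figure D1:**
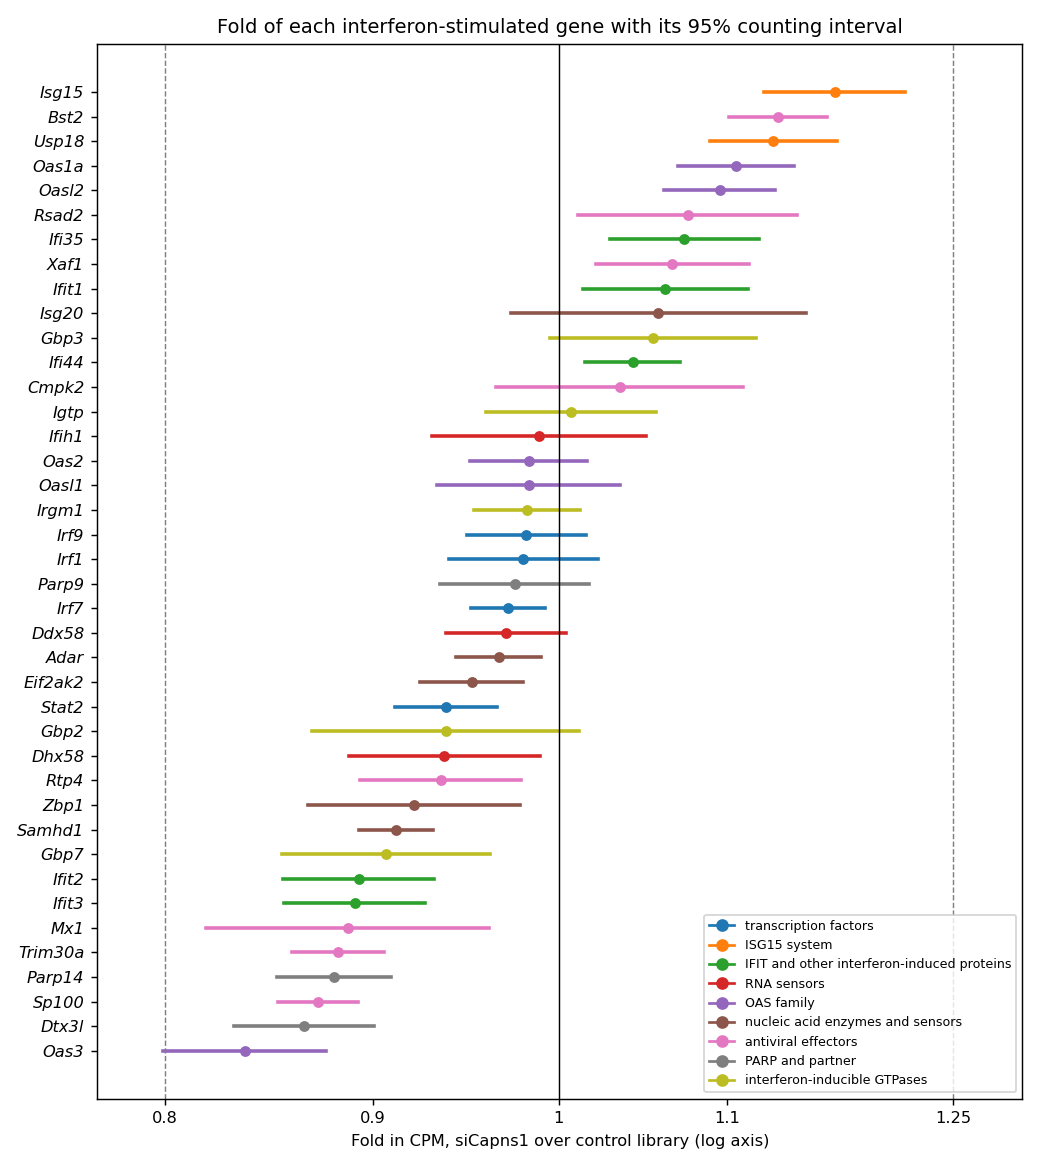
Fold in CPM of each gene, siCapns1 over control library, on a log axis, ordered by fold and coloured by role. Points are folds, bars are 95% intervals of counting error, the solid line marks 1 and the dashed lines a level 20% lower and 25% higher. Isg15 at 1.17 is highest and Oas3 at 0.837 lowest, and no point passes a dashed line.

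The transcription factors of the response were near equality or slightly lower. Irf7, which amplifies the interferon response by inducing interferon genes, had 18100 control and 17161 siCapns1 reads, a fold of 0.972 (95% interval 0.951 to 0.992). Stat2, the STAT specific to ISGF3, had 9726 and 8907 reads, a fold of 0.938 (0.912 to 0.966). Irf9, the DNA-binding part of ISGF3, had 6907 and 6618 reads, and Irf1, which responds to both kinds of interferon, 4486 and 4291. The intervals of Irf9 and Irf1 included 1, at folds of 0.982 and 0.980. All 4 factors had lower CPM in the siCapns1 library, and for Irf7 and Stat2 the interval lay below 1.

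Isg15 and Usp18, the genes of the ISG15 system in the list, stood at the upper end. Isg15 encodes a ubiquitin-like protein that is attached to other proteins, and Usp18 the protease that removes it and that also damps signalling at IFNAR2. Isg15 had 4539 control and 5178 siCapns1 reads, or 94.7 and 111 CPM, and its fold was 1.17 (95% interval 1.12 to 1.22). Usp18 had 5779 and 6368 reads, or 121 and 136 CPM, and its fold was 1.13 (1.09 to 1.17). Both genes were thus higher in the siCapns1 library, and the ratio of their folds, 1.04 (0.981 to 1.09), had an interval that included 1. Of the conjugating enzymes, Uba7, the activating enzyme, stood at 0.938 (0.899 to 0.978) and Ube2l6, the conjugating enzyme, at 1.05 (0.989 to 1.11), both named after their values were seen.

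The IFIT genes, whose proteins bind foreign or uncapped RNA and hinder its translation, went different ways. Ifit1 had 3497 control and 3625 siCapns1 reads, a fold of 1.06 (95% interval 1.01 to 1.11). Ifit2 had 4572 and 3984 reads, a fold of 0.893 (0.856 to 0.932), and Ifit3 5262 and 4575 reads, a fold of 0.891 (0.856 to 0.927). The fold of Ifit1 was 1.19 times that of Ifit2 (1.12 to 1.27) and 1.19 times that of Ifit3 (1.12 to 1.27), although these genes are neighbours on chromosome 19. Ifit3 has a close copy, Ifit3b, and reads of the pair may have been split. Ifi44, a cytoplasmic interferon-induced protein, had 10459 and 10642 reads and a fold of 1.04 (1.01 to 1.07), and Ifi35, a leucine zipper protein, 4229 and 4431 reads and a fold of 1.07 (1.03 to 1.12).

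Of the cytoplasmic RNA sensors, Ddx58 encodes RIG-I, Ifih1 encodes MDA5 and Dhx58 their regulator LGP2. Ddx58 had 6969 control and 6600 siCapns1 reads (fold 0.970, 95% interval 0.938 to 1.004), and Ifih1 2165 and 2089 (0.989, 0.931 to 1.05). Dhx58 had 2802 and 2563 reads, a fold of 0.937 (0.888 to 0.989), and was the only sensor whose interval excluded 1.

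The OAS family showed the widest spread of any role. Its enzymes make 2′-5′ oligoadenylates, which switch on the ribonuclease RNase L. Oas3 had 4078 control and 3332 siCapns1 reads, or 85.1 and 71.3 CPM, and its fold was 0.837 (95% interval 0.799 to 0.877). Oas1a had 6903 and 7446 reads, or 144 and 159 CPM, and its fold was 1.11 (1.07 to 1.14), and Oas2 7287 and 6991, a fold of 0.983 (0.951 to 1.02). The fold of Oas1a was 1.32 times that of Oas3 (1.248 to 1.40) and 1.12 times that of Oas2 (1.07 to 1.18). Mouse Oas1a lies among several near copies, so its reads are uncertain, and of those copies Oas1g stood at 1.12 (1.06 to 1.18), Oas1b at 1.01 (0.930 to 1.10) and Oas1c at 0.993 (0.897 to 1.10), all named after their values were seen. The OAS-like genes also differed, with 7662 and 8190 reads for Oasl2 (fold 1.10, 1.06 to 1.13) and 2978 and 2857 for Oasl1 (0.983, 0.934 to 1.04). The ratio of the folds of Oasl2 and Oasl1 was 1.11 (1.05 to 1.18).

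Enzymes and sensors of nucleic acids were mostly lower by small amounts. Samhd1, which depletes the deoxynucleotides that viruses need, was the most abundant in reads, with 18808 control and 16740 siCapns1 reads, a fold of 0.912 (95% interval 0.893 to 0.931). Adar, the enzyme that edits adenosine in double-stranded RNA, had 13902 and 13114 reads (0.967, 0.944 to 0.990), and Eif2ak2, the kinase PKR that stops translation, 9501 and 8827 (0.952, 0.925 to 0.980). Zbp1, a sensor of Z-form nucleic acid that can start necroptosis, had 2292 and 2061 reads, a fold of 0.921 (0.868 to 0.978). Isg20, an exonuclease, went the other way in level, with 1108 and 1144 reads and an interval that included 1 (1.06, 0.973 to 1.15).

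The antiviral effectors were divided. Bst2 encodes tetherin, which holds budding virus at the membrane. It had 9657 control and 10671 siCapns1 reads, or 202 and 228 CPM, and its fold was 1.13 (95% interval 1.10 to 1.16). Sp100, a component of nuclear bodies, stood opposite, with 16166 and 13766 reads, or 337 and 294 CPM, and its fold was 0.873 (0.853 to 0.893). Trim30a, a TRIM protein that restrains inflammatory signalling, had 12190 and 10499 reads, a fold of 0.883 (0.860 to 0.906). Sp100 and Trim30a have close copies in the mouse genome, so their reads are uncertain. Mx1, a dynamin-like GTPase, was low, with 1313 and 1137 reads and a fold of 0.887 (0.819 to 0.961). In C57BL/6 mice this gene carries a deletion that leaves no working protein. Rtp4, which limits viral replication, had 3931 and 3588 reads (0.935, 0.894 to 0.979), and Xaf1, an antagonist of the caspase inhibitor XIAP, 4053 and 4218 (1.07, 1.02 to 1.11). Rsad2, which encodes viperin, and its neighbour Cmpk2, a mitochondrial nucleotide kinase, had 1985 and 2084 reads (1.08, 1.01 to 1.14) and 1585 and 1601 reads (1.03, 0.965 to 1.11). The ratio of the folds of Cmpk2 and Rsad2, 0.962 (0.877 to 1.06), had an interval that included 1.

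PARP9 and DTX3L form a complex that adds ADP-ribose and ubiquitin, and PARP14 is a mono-ADP-ribosyltransferase. Dtx3l had 5375 control and 4541 siCapns1 reads, a fold of 0.866 (95% interval 0.832 to 0.901), and Parp14 8009 and 6882, a fold of 0.880 (0.852 to 0.909). Parp9, which lies head to head with Dtx3l, had 4485 and 4269 reads and a fold of 0.975 (0.935 to 1.02). The fold of Parp9 was 1.13 times that of Dtx3l (1.06 to 1.19).

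The interferon-inducible GTPases, which take part in defence against intracellular microbes, were near equality. Irgm1 had 8906 control and 8537 siCapns1 reads (fold 0.982, 95% interval 0.953 to 1.01), and Igtp 3394 and 3335 (1.01, 0.960 to 1.06). Gbp7 had 2389 and 2114 reads, a fold of 0.907 (0.855 to 0.962), and was the only gene of the 5 whose interval excluded 1. Gbp2 had 1429 and 1308 reads (0.938, 0.869 to 1.01) and Gbp3 2249 and 2315 (1.05, 0.995 to 1.12). Reads of guanylate-binding protein genes may have been split among similar copies.

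Compared per length of transcript, the order of levels was led by the same 4 genes in both libraries. Given as RPKM, the CPM divided by the length of the longest transcript in kb, Bst2 stood at 255 and 288 in the control and the siCapns1 library, Isg15 at 125 and 146, and Irf7 at 117 and 113. Samhd1 followed at 99.99 and 91.2. Sp100 at 88.6 and 77.3 and Oas1a at 76.4 and 84.5 came next and changed places between the libraries. Mx1 was lowest, at 8.10 and 7.18, with Ifih1 at 8.26 and 8.17 and Gbp7 at 8.88 and 8.05. These levels use the longest annotated transcript, which need not be the one expressed, and the library difference within each gene was small beside the differences between genes.

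**Figure D2:**
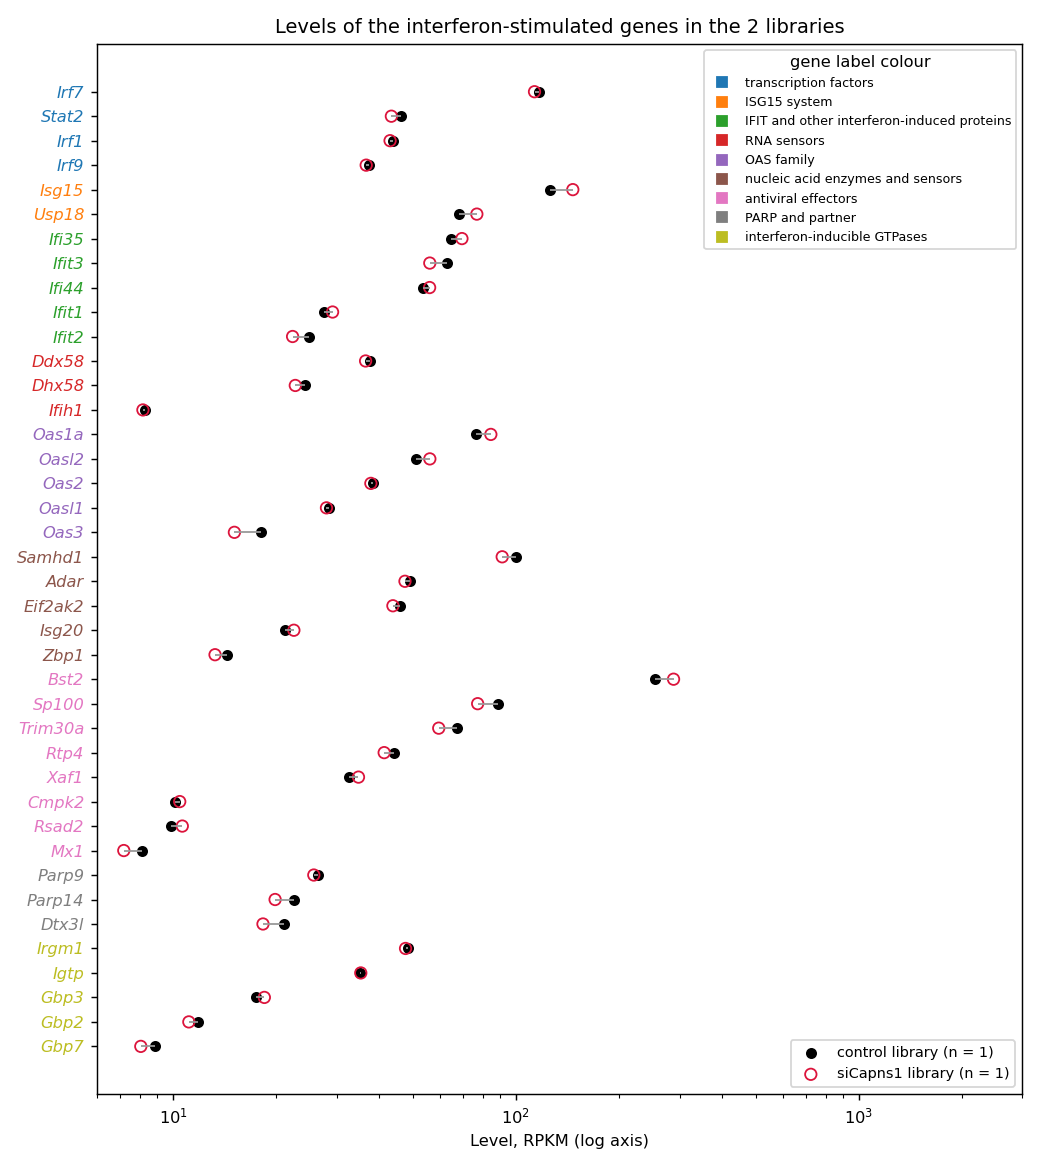
Level of each gene in RPKM, on a log axis, in the control (filled) and siCapns1 library (open), with 1 library each, grouped by role. Levels run from 7.18 for Mx1 to 288 for Bst2, and the libraries lie close together for every gene.

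Folds went with transcript length. The 10 genes with intervals above 1 had a median longest transcript of 2241 bases (756 to 4189), and the 17 with intervals below 1 one of 3818 bases (1745 to 7417). Isg15 and Bst2, with the highest folds, were the shortest of the list, at 756 and 792 bases, and Parp14 at 7417 was the longest. Length and log2 fold had a rank correlation (Spearman's rho) of -0.50 across the 40 genes and of -0.32 across all 13381 genes with a length. These points share their libraries and depth, and genes are not independent replicates, so no p is given.

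With the trend on length over all genes taken away, the list spanned folds of 0.847 to 1.10, with 7 intervals above 1 and 20 below, against 22.4% and 21.6% of all genes with a length. Isg15 stood at 1.10 (95% interval 1.06 to 1.15) in that setting, Usp18 at 1.07 (1.04 to 1.11), Bst2 at 1.07 (1.04 to 1.10) and Oas3 at 0.850 (0.812 to 0.890). Ifit1, Xaf1 and Ifi35 no longer had intervals above 1, nor did Adar have one below. Gbp2, Ddx58, Irf1 and Oasl1 came to lie below 1. The median log2 fold was -0.05. No gene had intervals on opposite sides of 1 in the 2 settings. For 12 pairs of genes of 1 role, chosen after the values were seen, the folds were divided by each other. Of these pairs 9 had an interval that excluded 1 without and 9 with the trend removed, 8 of them in both. Because of that choice, the count does not show how often genes of 1 role differ. The ratio stood at 1.24 (1.17 to 1.31) for Oas1a over Oas3, 1.13 (1.07 to 1.20) for Oasl2 over Oasl1, 1.22 (1.15 to 1.297) for Ifit1 over Ifit3 and 1.08 (1.02 to 1.15) for Parp9 over Dtx3l. Parp9 over Parp14 went from 1.11 (1.05 to 1.17) to 1.03 (0.980 to 1.09), whose interval included 1, and Ifih1 over Dhx58 from 1.05 (0.973 to 1.14) to 1.12 (1.03 to 1.22).

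**Figure D3:**
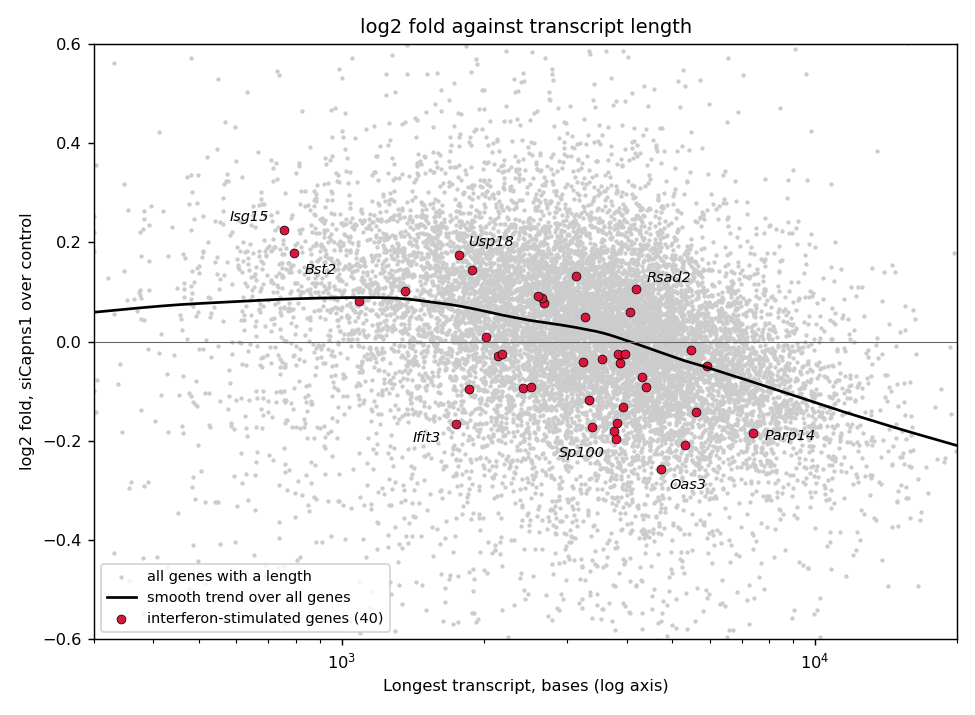
log2 fold (siCapns1 over control library) against the longest transcript in bases on a log axis. Grey points are all genes with a length, the line their smooth trend, and red points the 40 interferon-stimulated genes. Short transcripts such as Isg15 (756 bases) lie high and long ones such as Parp14 (7417 bases) low. 201 genes lie outside the axes.

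The rest of the pathway is given by role. Of 10 interferon genes looked up, 0 were among the genes counted here, which all have at least 100 control reads, so no level of an interferon is given. Of the receptor chains, Ifnar1 stood at a fold of 0.872 (95% interval 0.841 to 0.905; 6275 and 5340 reads) and Ifnar2 at 0.984 (0.936 to 1.03). Ifngr1 and Ifngr2, the chains of the interferon gamma receptor, stood at 1.01 (0.967 to 1.05) and 1.02 (0.981 to 1.07). Ifnlr1, of the interferon lambda receptor, had 186 and 129 reads (0.711, 0.563 to 0.894), and its partner Il10rb stood at 0.953 (0.906 to 1.003). Of 6 receptor genes, 2 intervals thus lay below 1 and 0 above, against 22.7% and 24.2% of all counted genes. Ifnlr1 was called lower by size, as were 4.90% of all counted genes. With the trend on length taken away, the interval of Il10rb also lay below 1, at 0.929 (0.883 to 0.978).

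Of the kinases, Jak1, used by all interferon receptors, had 18808 and 16372 reads, a fold of 0.892 (0.873 to 0.911). Jak2 stood at 0.962 (0.931 to 0.995) and Tyk2 at 1.05 (0.998 to 1.11). Stat3 stood at 0.954 (0.929 to 0.981), so 3 of these 4 intervals lay below 1, against 22.7% of all counted genes. That count did not hold with the trend on length taken away, where 1 interval lay below 1 and 1 above. Over all genes with a length 21.6% lay below and 22.4% above in that setting. Jak1 then stood at 0.909 (0.890 to 0.928), Tyk2 at 1.07 (1.02 to 1.13), Jak2 at 0.983 (0.951 to 1.02) and Stat3 at 0.991 (0.965 to 1.02).

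Among 11 genes of sensing and interferon induction, 2 intervals lay above 1 and 4 below. For these and the negative regulators that follow, the shares over all counted genes were 24.2% above and 22.7% below. Irf3, the factor that starts interferon transcription, stood at 1.13 (95% interval 1.07 to 1.19) and the adaptor gene Myd88 at 1.07 (1.01 to 1.13). Trim25, the ubiquitin ligase of RIG-I, stood at 0.929 (0.907 to 0.952), the adaptor gene Ticam1 at 0.894 (0.820 to 0.976), Tank at 0.931 (0.882 to 0.983) and the kinase gene Tbk1 at 0.950 (0.907 to 0.995). Irf5 stood at 0.992 (0.953 to 1.03). With the trend on length taken away 1 interval of these 11 lay above 1 and 5 below, as Myd88 no longer lay above and Irf5 came to lie below. Over all genes with a length 22.4% lay above and 21.6% below in that setting. Of 8 negative regulators, the phosphatase gene Ptpn2 lay above 1 at 1.14 (1.07 to 1.20), and Socs3 at 0.931 (0.896 to 0.968), Irf2 at 0.936 (0.899 to 0.974) and Ptpn6 at 0.973 (0.950 to 0.997) lay below. Usp15, the other most abundant of these, stood at 0.991 (0.956 to 1.03), and at 1.09 (1.05 to 1.13) with the trend on length taken away.

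Of 67 further interferon-stimulated genes 65 were counted, of which 53 had lower and 12 higher CPM in the siCapns1 library. Their median log2 fold was -0.09, with 38 intervals below 1 and 6 above, against 22.7% and 24.2% of all genes. By the rule of size 4 were called lower and 1 higher, against 4.90% and 2.94% of all counted genes. The gene called higher was Cxcl10, a chemokine that draws T cells, with 424 control and 621 siCapns1 reads, a fold of 1.501 (95% interval 1.32 to 1.70). The genes called lower were Phf11d at 0.751 (0.666 to 0.848) and the p200 family gene Ifi207 at 0.774 (0.711 to 0.842), with Ifi205 at 0.716 (0.593 to 0.863) and the immunity-related GTPase gene Iigp1 at 0.779 (0.677 to 0.896), both of which were named after their values were seen. Slfn5 and Slfn8, Schlafen genes that lymphocytes express, stood at 0.803 (0.782 to 0.823) and 0.817 (0.789 to 0.845), and Trim12c at 0.826 (0.796 to 0.858). The most abundant, Ly6e and Shisa5, stood at 0.924 (0.911 to 0.936) and 0.946 (0.932 to 0.959). With the trend on length taken away, 40 of these intervals lay below 1 and 4 above, against 21.6% and 22.4% of all genes with a length.

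Markers of cells that can express interferon-stimulated genes also differed between the libraries. The counts of intervals below stand beside 24.2% above 1 and 22.7% below over all counted genes. Among genes with at least 2252 reads these shares were 32.6% and 26.7%. All counted genes have at least 100 control reads, so a marker with few control reads is missing even where its siCapns1 reads were higher. Counts of lower and higher markers are therefore not balanced for scarce genes. Of 15 macrophage markers 12 were counted, with 11 intervals below 1 and 1 above, a median log2 fold of -0.77 and a summed level of 379 CPM (control) and 252 CPM (siCapns1). Msr1 stood at 85.5 and 41.8 CPM, Cd68 stood at 78.8 and 63.7 CPM and Siglec1, itself induced by interferon, at 30.0 and 12.6 CPM. The 10 B cell markers had 9 intervals below 1 and 0 above, a median log2 fold of -0.18 and summed levels of 2967 and 2644 CPM, with Cd79a and Cd22 the most abundant. Of 12 T cell markers 5 intervals lay below 1 and 2 above, with summed levels of 348 and 339 CPM, led by Lck and Cd8a. With the trend on length taken away 6 of these intervals lay below and 0 above, against 21.6% and 22.4% of all genes with a length. Of 8 markers of plasmacytoid dendritic cells, strong producers of type I interferon, 7 were counted, with 1 interval above 1 and 2 below. Their summed levels were 363 and 339 CPM, most of it in Spib and Tcf4, which B cells share. The interval above 1 was that of Cox6a2, at 1.21 (1.07 to 1.37), named after its value was seen. The defining gene Siglech stood at 3.76 and 3.10 CPM, with an interval that included 1. The 9 counted markers of matrix-producing cells had 2 intervals above 1 and 3 below, with summed levels of 3067 and 2909 CPM, led by Col5a2 and Fn1. The 10 markers of regulatory T cells, the labelled type, had 2 intervals below 1 and 0 above, with summed levels of 205 and 187 CPM, most of it in Capg and Nrp1, which other cells share. Of 12 markers of endothelial cells, the type of the knockdown partner, 5 were counted, with 1 interval above 1 and 1 below. Their summed levels were 115 and 112 CPM, most of it in Pecam1. Pecam1 stood at 0.950 (0.908 to 0.993) and Vwf, the next in reads, at 1.16 (1.03 to 1.31). The 8 counted neutrophil markers were divided, with 4 intervals above 1 and 4 below and summed levels of 272 and 323 CPM. S100a9 stood at 95.7 and 124 CPM (fold 1.29), S100a8 at 59.1 and 74.6 (1.26), and Ltf at 24.5 and 40.4 (1.65) and Camp at 4.26 and 8.28 (1.94), the last pair named after their values were seen. These 4 were called higher by size, and Retnlg, at 0.717 (0.583 to 0.879), was called lower. Csf3r at 0.830, Mmp8 at 0.870 and Cxcr2 at 0.899 also had intervals below 1, again named after their values were seen. Of the other marker lists, 8 genes of macrophages and 1 each of T cells, conventional dendritic cells, NK cells and erythroid cells were called lower. No gene of another marker list was called higher. Over all counted genes 4.90% were called lower and 2.94% higher. The 6 counted erythroid genes, led by Hbb-bs and Hba-a1, had 5 intervals below 1 and 0 above and summed levels of 2586 and 2328 CPM. The 6 counted markers of conventional dendritic cells had 2 intervals below 1 and 0 above (136 and 125 CPM, led by Ccr7 and Zbtb46). The 4 of NK cells had 1 above and 1 below (20.9 and 19.6 CPM, led by Nkg7 and Eomes). No counted marker was at 0. The part of these cells in the folds of the interferon-stimulated genes was not tested.

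**Figure D4:**
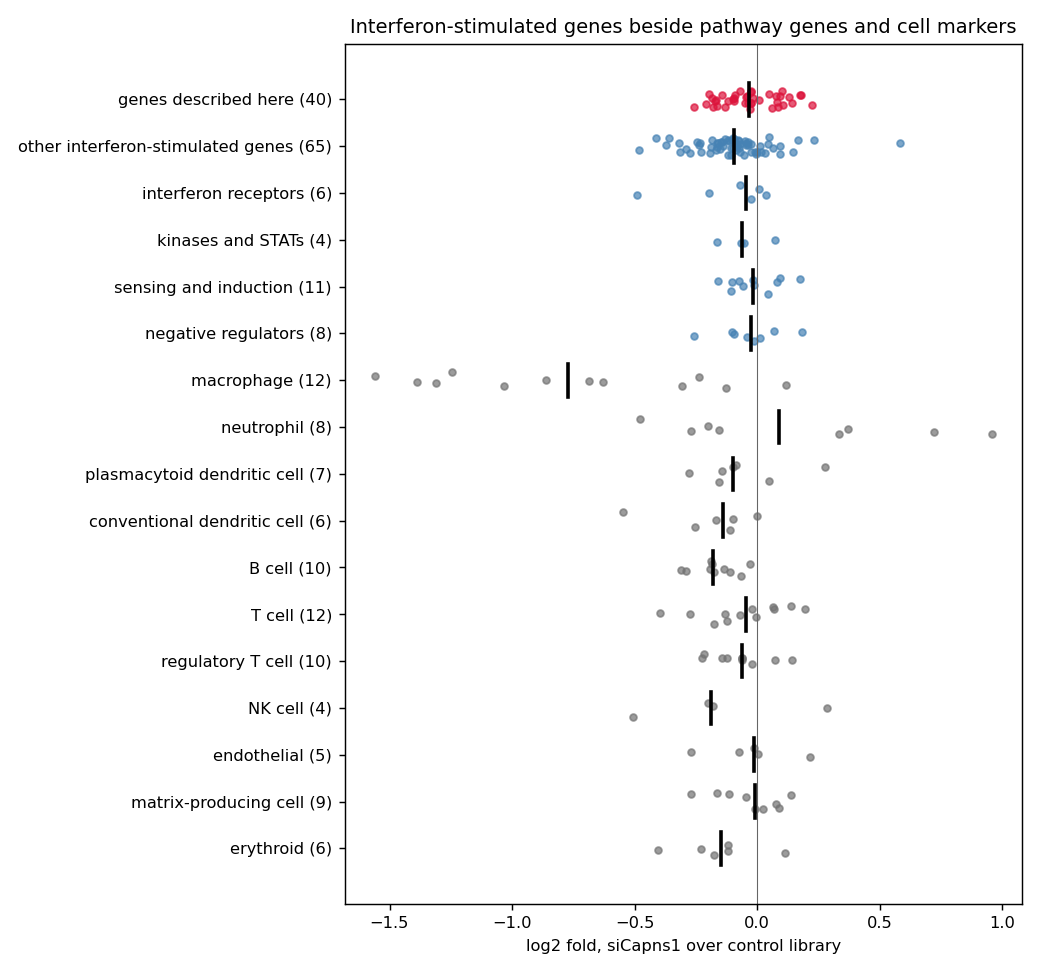
log2 fold of single genes (points) and the median of each list (bars), siCapns1 over control library, for the 40 genes described here, the other genes of the pathway and cell markers, with the number counted in parentheses. The 40 genes spread around a median of -0.03, the further interferon-stimulated genes around -0.09, macrophage markers reach farthest below 0 and the neutrophil marker Camp farthest above.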

How the data were processed

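The 2 libraries, 1 for each co-culture with SVEC4-10 cells, were made from total RNA of cells labelled as mouse splenic CD4+CD25+. The authors deposited counts, not normalized, of the reads mapped to each gene (per the file headers). The submitters' processing notes list Trimmomatic 0.39, BWA 0.7.17 and 2 builds (mm8, GRCm39) but give no roles for them. The rule for assigning reads to genes and the use of strand are not given in the sources used here. Count columns carry the prefixes Cont and Si, which were read as control and as small interfering RNA. If they meant the reverse, all directions given in this report would turn. The row of library totals was left out.

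CPM used TMM library sizes from edgeR 4.0.16 under R 4.3.3. A fold is CPM in the siCapns1 over the control library, with an exact 95% interval (Clopper-Pearson on the share of a gene's reads that fell in either library). Ratios of 2 folds have an interval from the normal approximation on the log scale. Log2 folds used a prior count of 0.5. No test was run, since a spread between cultures cannot be had from 1 library each. All 14774 listed genes entered, and no count was 0 (the floor would have been 3 reads). Transcript lengths are those of the longest GENCODE M21 transcript, found for 13381 genes (90.6%) and all 40 members. For 1 alternative, a LOWESS trend of log2 fold on log2 length over those genes (fraction 0.3, statsmodels 0.14.6) was subtracted. Further alternatives replaced TMM by size factors of DESeq2 1.42.0, by totals or by upper quartiles, or used at least 5 CPM, a prior count of 5, a fold of 1.5 and the mean in place of the median. Steps outside R ran in Python 3.11.15 (scipy 1.17.1, numpy 2.4.6, pandas 2.3.3; figures in matplotlib 3.10.9). The code for the intervals was run on simulated counts that held counting error only. That run cannot show how the intervals fare with a spread between cultures. Promoter windows are from RefSeq (GRCm38.p6).

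The members and all gene lists were chosen with earlier results of these data known. All members are named, as are all counted interferon receptors and the listed kinases and STATs, except 1 gene that was taken out of its list and is not reported here. Of the other pathway lists the 6 genes, or fewer, whose intervals lie farthest from 1 are named, with the 2 of most reads, and of marker lists the 2 of most reads with defining genes. Promoter stretches were meant for called genes. As none was called, they are shown for genes whose interval excluded 1, a choice made, like that of the pairs of genes of 1 role and of the comparison with genes of at least 2252 reads, after the values were seen.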

Additional observations from a re-analysis of the deposited data

How the results depend on the processing

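Between 7 and 10 intervals lay above 1 and between 17 and 20 below under every alternative run for these counts, 0 genes were called in either direction, and the median log2 fold lay between -0.05 and -0.03. The summed level stood at a fold of 0.966 with total counts and 0.964 with upper-quartile scaling, in place of 0.974. With DESeq2 size factors, total counts or upper quartiles all 40 single folds stayed inside their intervals. With the length trend removed 31 did, 8 lay outside, and Adar turned from lower to a fold of 1.002. Of genes whose interval included 1, Ifih1 then turned to 1.018, Isg20 to 0.995 and Igtp to 0.966. Igtp also turned with total counts (0.999) and upper quartiles (0.997). No paired analysis was possible because each group had 1 library, and for the same reason none could be left out. The counted genes have at least 100 reads in the control, so genes higher from a low start are not among those compared.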
